A study of Homo sapiens with 102 samples.

Results

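The genes described here were RACK1, the translation elongation factors EEF1A1, EEF1B2, EEF1D, EEF1G and EEF2, and the TOP mRNAs TPT1, NACA and BTF3. These 9 genes were listed by symbol, and a row was taken from the count table when its Ensembl identifier mapped to one of them. A row was found for 8 of the 9 among 24965 genes, and EEF1G was not analysed here. RACK1 heads the list because it had been selected on its change with imatinib in these same libraries, so imatinib values are given below as a description with no test.

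All libraries came from K562 cells, a human chronic myeloid leukaemia line with the bcr:abl fusion gene, with a treatment time of 12 h in the labels. In the Combi-Seq screens single cells were held in picolitre droplets, and each droplet received an ordered pair out of DMSO (solvent), Imatinib (a BCR-ABL kinase inhibitor), Trametinib (a MEK inhibitor) and YM115, a name spelled as in the labels, which the study writes YM155 and uses to inhibit survivin. The 16 ordered pairs were run 3 times in the dT screen and 3 times in the Bio screen, in which the barcode fragments of the drug sources were swapped, and each screen had 3 separate DMSO controls, giving 102 libraries. Drug concentrations are not in the labels, no other cell line was used, and each library pools many cells, so that fewer cells and less RNA per cell cannot be told apart.

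RACK1 is a WD-repeat scaffold protein on the small ribosomal subunit. The eEF1 complex brings aminoacyl-tRNA to the ribosome: EEF1A1 encodes the GTPase that carries the tRNA, and EEF1B2, EEF1D and EEF1G encode subunits of its nucleotide exchange factor. EEF2 encodes the GTPase that moves the ribosome along the mRNA. NACA and BTF3 encode the alpha and beta subunits of the nascent polypeptide-associated complex, which binds growing chains as they leave the ribosome, and TPT1 encodes the translationally controlled tumour protein. Many mRNAs of this group begin with a 5′ terminal oligopyrimidine (TOP) tract, a C followed by a run of pyrimidines, through which mTOR signalling and LARP1 set their translation.

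The annotated start sites are shown because they carry the feature from which the TOP mRNAs take their name. The sequences are RefSeq promoter windows on GRCh38.p14, cut to 10 bases before and 20 bases from the annotated start, and capitals mark the uninterrupted pyrimidine run from the first transcribed base. The RACK1 window was chr5:181243887-181243916 on the minus strand and that of EEF1A1 was chr6:73521013-73521042 on the minus strand. For EEF1B2 the second of its annotated starts is printed, chr2:206159885-206159914 on the plus strand, because the other begins with A. The EEF2 window was chr19:3985444-3985473 (minus), and the TPT1 window was chr13:45341164-45341193 (minus). NACA was read at chr12:56725280-56725309 (minus) and BTF3 at chr5:73498432-73498461 (plus).
RACK1: gcttttctctCTCTCTTTCactgcaaggcg
EEF1A1: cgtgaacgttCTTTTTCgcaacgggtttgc
EEF1B2: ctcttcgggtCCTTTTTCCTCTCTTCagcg
EEF2: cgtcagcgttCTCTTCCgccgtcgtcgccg
TPT1: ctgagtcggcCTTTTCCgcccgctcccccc
NACA: ctcgctcggtCTTTCTgccgccatcttggt
BTF3: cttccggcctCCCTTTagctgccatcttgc

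A start was counted as TOP when the first transcribed base was C and at least 4 more C or T bases followed without a break, read on the gene's own strand only. Of the 8 members matched in the promoter table, 7 had such a start, the exception being EEF1G, whose annotated start begins with A. EEF1D is named only. The pyrimidine run was longest in EEF1B2 at 16 bases, followed by RACK1 at 9, and it measured 7 in EEF1A1, EEF2 and TPT1 and 6 in NACA and BTF3. Over the whole promoter table, 1429 of 35116 annotated starts met the same definition (4.07%), as did 889 of the 13268 genes that also had a row in the count table (6.7%). Among large subunit ribosomal protein genes the share was 28 of 38 (73.7%) and among small subunit genes 18 of 24 (75.0%). It was 1 of 13 (7.69%) for other elongation genes and 0 of 16 for the listed regulators of TOP mRNAs. A match describes the annotated start and was not checked against the reads, which come from the 3′ end of the mRNAs.

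The in-screen libraries held 127042 to 759756 counts in the dT screen and 17882 to 780143 in the Bio screen. In-screen libraries entered the tests with at least 1000 detected genes and at most 15% mitochondrial counts, which all 48 dT and 44 of 48 Bio libraries met. The 4 libraries left out were all 3 Imatinib_Imatinib runs and DMSO_Trametinib run 1 of the Bio screen. They were kept in the Bio fit against the separate controls, which used all libraries of a screen. These limits were not applied to the separate DMSO controls, of which 4 of 6 exceeded the mitochondrial limit and all were kept. The controls stood apart in dT, with 7410 to 10361 detected genes against 1837 to 5110 in the screen, and with 10.2% to 36.9% mitochondrial counts against 2.71% to 7.34%. In Bio they had 5501 to 7058 detected genes against 438 to 3849, from only 35742 to 89347 counts, and 5.1% to 28.1% mitochondrial counts against 1.62% to 6.87%, so that 1 Bio control lay within the range of the screen. All 14 K562 markers had counts in the in-screen libraries of both screens. Of the 6 lymphoid markers 3 were at 0 in the dT in-screen libraries, among them CD3E and MS4A1, and of the 7 epithelial and fibroblast markers 6 had counts, with a median sum of 504 counts per 1000000 counts of a library (CPM).

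RACK1 (ENSG00000204628, chr5:181236909-181248096, minus strand, GRCh38) was counted in 101 of 102 libraries, with 414625 reads in total. In the dT screen its level ran from 8690 to 24548 CPM with a median of 15462 CPM, a coefficient of variation of 24.2% over 48 libraries. In the Bio screen the 44 libraries that passed ran from 6047 to 23726 CPM with a median of 11980 CPM, a coefficient of variation of 36.2%. The single library without a RACK1 read was Imatinib_Imatinib run 2 of the Bio screen, which had 25110 counts, where a count of 0 allows up to 119 CPM. RACK1 alone made up a median of 1.55% of all counts in dT and 1.2% in Bio, against 22.5% in either screen for the 77 ribosomal protein genes together.

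**Figure D1:**
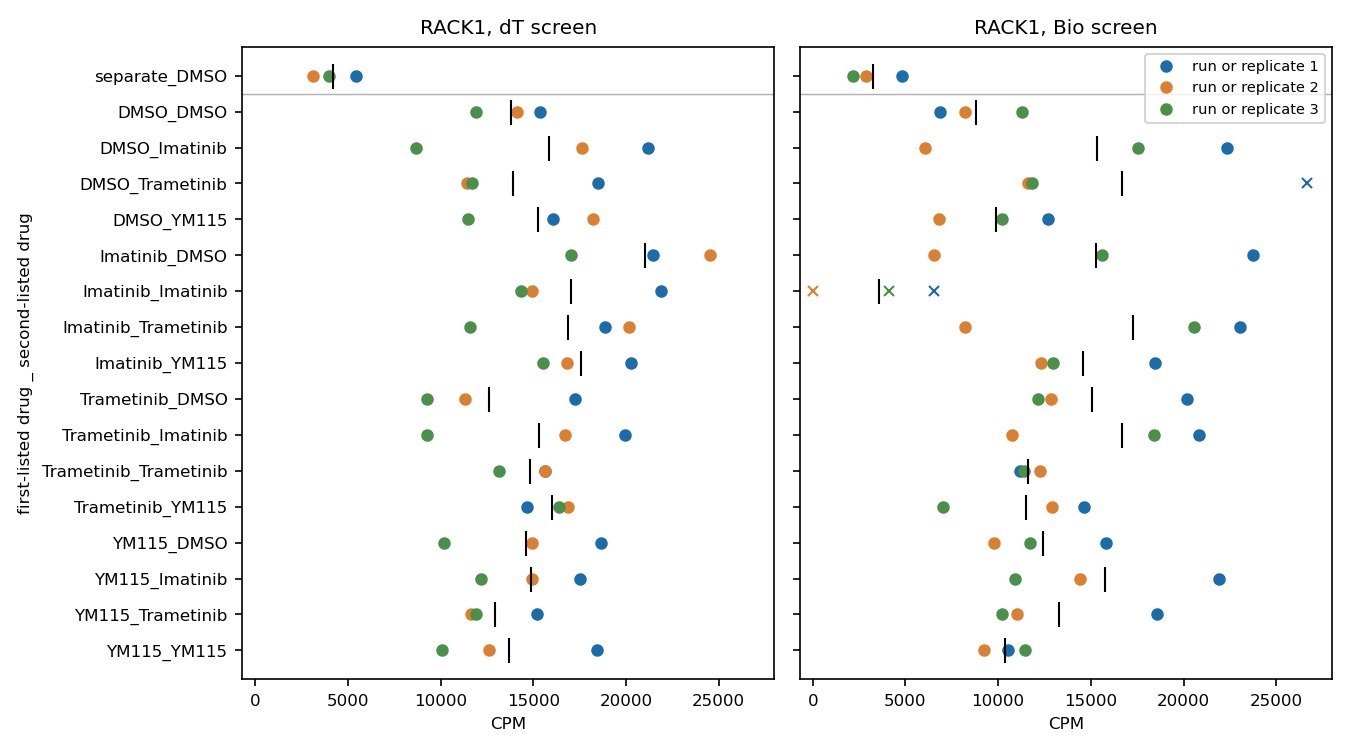
RACK1 level in CPM (x axis) in each library, by ordered drug pair and for the separate DMSO controls (y axis), with the dT screen on the left and the Bio screen on the right. Points are libraries coloured by run or replicate number, crosses are the 4 Bio libraries that did not pass, and black bars are means over all 3 libraries of a row. The separate controls reach at most 5455 CPM in dT and 4812 CPM in Bio, below every in-screen library that passed.

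The other members were measured less evenly. EEF2 (chr19:3976056-3985469, minus strand) was counted in all 48 dT libraries and in 43 of the 44 Bio libraries, with medians of 1372 and 1993 CPM. TPT1 (chr13:45333471-45341370, minus strand) and NACA (chr12:56712428-56731628, minus strand) were counted in all 48 dT libraries, and in 37 and 39 of the 44 Bio libraries. The median for TPT1 was 1001 CPM in dT and 720 CPM in Bio, and for NACA 1275 and 774 CPM. Within each of these genes libraries of the same screen differed widely, with a coefficient of variation of 77.2% for EEF2, 67.7% for TPT1 and 55.6% for NACA in dT, and of 108%, 95.4% and 125% in Bio.

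The eEF1 genes had few reads. EEF1A1 (chr6:73515750-73523797, minus strand) had 2811 reads over all libraries, with a dT median of 63.4 CPM and a highest value of 521 CPM. EEF1B2 (chr2:206159585-206162928, plus strand) had a dT median of 268 CPM. EEF1D (chr8:143579697-143599541, minus strand) was counted in 25 of 48 dT and 11 of 44 Bio libraries, and the nascent chain gene BTF3 (chr5:73498408-73505635, plus strand) in 30 and 9. In libraries without a read of them, 3 counts, the limit that a count of 0 allows, came to between 5.79 and 36.7 CPM for EEF1D and between 5.81 and 36.2 CPM for BTF3. The highest BTF3 value, 2688 CPM in Bio Imatinib_Trametinib run 2, rested on 401 reads and was far above the next in-screen Bio library at 237 CPM.

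Several of these low counts are uncertain because near-identical copies and overlapping genes also have rows. For EEF1A1, 41 genes named as its pseudogenes carried 573 reads, 16.9% of the sum of gene and copies, and for EEF1B2 8 pseudogenes carried 519 reads (6.91%). How reads that match a gene and its copies alike were counted was not tested, so these shares do not show how many reads a gene lost. A low count of EEF1A1 or EEF1B2 is therefore not read as a low mRNA level in the cells. For EEF1D the share of its copies was 7.86%. For TPT1 the share was 1.02%, for NACA 0.142% and for RACK1 0.0668%. EEF1B2 overlaps NDUFS1 on the opposite strand, which had 1302 reads, and EEF1D overlaps TIGD5 on the opposite strand, which had 841 reads against 797 for EEF1D. Since the use of strand in counting is not given in the sources used here, reads of such partners cannot be told apart.

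**Figure D2:**
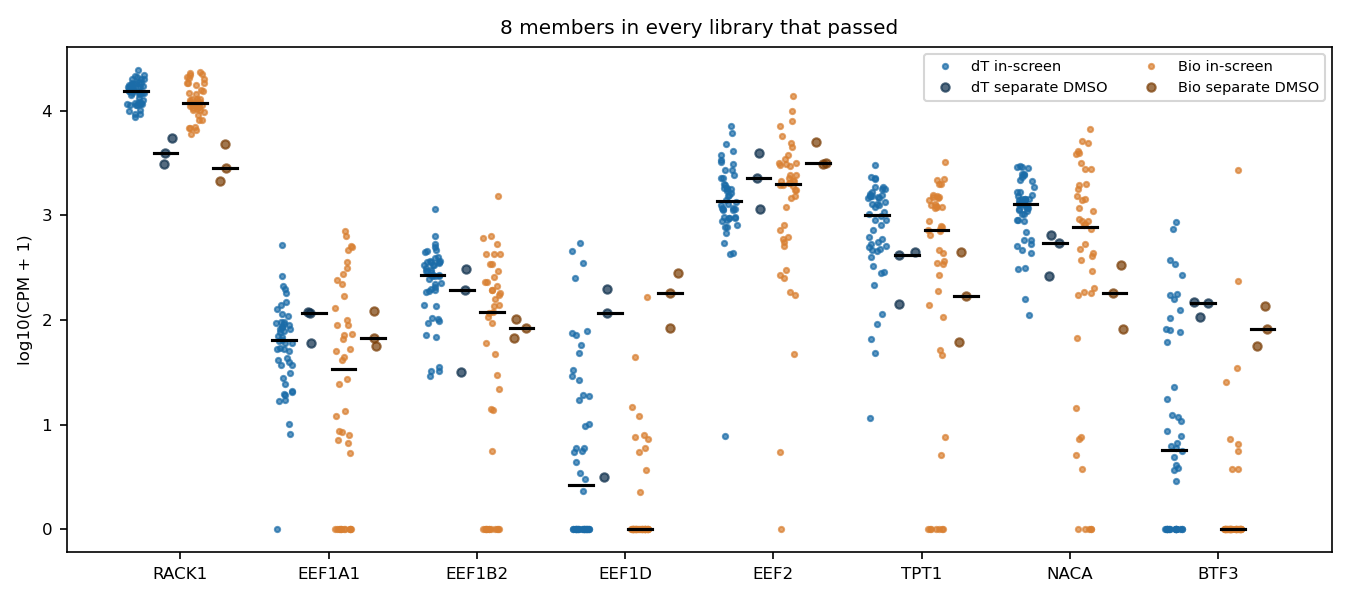
Level of each of the 8 members (x axis) as log10(CPM + 1) (y axis) in every library that passed, for in-screen libraries (small points) and separate DMSO controls (large points) of both screens, with black bars at the medians. RACK1 forms a tight band, while EEF1D and BTF3 lie at 0 in many in-screen libraries and above 0 in all 6 separate controls.

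Correlations between RACK1 and the other members over libraries were weak. After run means were removed, the Pearson correlation of log2 CPM between RACK1 and the other members lay between -0.23 (BTF3) and 0.08 (EEF1D) over the 48 dT libraries, and between -0.14 (BTF3) and 0.39 (EEF1D) over the 44 Bio libraries. RACK1 itself correlated with the log2 total count at 0.20 in dT and 0.45 in Bio. These are descriptions over libraries that share runs and drug arms. The genes with the highest correlation with RACK1 in dT, among 558 counted in at least 90% of libraries, were RPS15 (0.60), CDH1 (0.60, also on the epithelial marker list), RPS15P4 (0.59), RPL13P12 (0.53) and COX5B (0.49). In Bio, among 202 genes, they were ENSG00000219023 (0.44), RPL31P44 (0.42), RPS3 (0.40), HSPE1 (0.39) and RPS2 (0.39). None of the other members was among them, but the 90% rule left out EEF1D and BTF3 in dT. In Bio it left out every other member except EEF2, so there the absence was largely fixed by the rule. The Bio value of EEF1D, 0.39, was as high as that of RPS2. RPS15P4 is listed as a copy of RPS15, and whether reads were split between them was not tested.

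RACK1 levels differed from run to run, which is given as a description. In dT the 16 libraries of run 1 had a mean of 18179 ± 2346 CPM (SD), those of run 2 a mean of 15785 ± 3457 CPM and those of run 3 a mean of 12166 ± 2543 CPM. In Bio the means were 17195 ± 5312 CPM over 14 libraries of run 1, 10190 ± 2604 CPM over 15 of run 2 and 12879 ± 3591 CPM over 15 of run 3. TPT1 in dT had run means of 1664 ± 565, 1159 ± 491 and 328 ± 231 CPM (n = 16 each). Run was a block in the drug comparisons by design, with 1 term for each drug whichever place it took in the pair.

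With imatinib, the contrast on which RACK1 was selected, RACK1 was at 8690 to 24548 CPM with a median of 17037 CPM in 21 dT libraries, against 9259 to 18624 CPM with a median of 14650 CPM in 27 libraries without it. The groups overlapped over most of their range. The log2 fold change was 0.30 ± 0.085 (SE), and the run means were higher with imatinib in 3 of 3 runs. In Bio it was 0.46 ± 0.13, with medians of 16571 CPM in 18 libraries and 11409 CPM in 26, and higher in 2 of 3 runs, run 2 being the exception. Leaving out 1 run at a time gave 0.21 to 0.33 in dT and 0.31 to 0.72 in Bio, the latter without run 2. As RACK1 was selected in these same libraries, the run means and ranges do not count as replication. With the size factors of DESeq2 the dT value was 0.13, and the median of all genes moved by -0.165 under that scaling. In this contrast 2.88% of 3930 genes in dT and 2.34% of 1754 in Bio were called, from which nothing is read here.

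The other members gave no common direction with imatinib. EEF2 had a log2 fold change of -0.70 ± 0.32 in dT, with medians of 1130 CPM with imatinib and 1806 CPM without, and of -0.11 ± 0.60 in Bio. EEF1A1 stood at 0.25 ± 0.59 in dT and 2.46 ± 1.05 in Bio, where it was counted in 17 of 18 libraries with imatinib and 15 of 26 without. The dT values of TPT1 (-0.08 ± 0.32), NACA (-0.09 ± 0.29) and EEF1B2 (-0.32 ± 0.40) were all smaller than their standard errors. Over the 8 members the median was 0.01 in dT, and over the 6 tested in Bio it was 0.27, beside 0.07 and 0.12 for all genes. For large subunit ribosomal protein genes it was 0.20 in dT and 0.16 in Bio, and for small subunit genes 0.09 and -0.05. In dT 3 of 42 large and 1 of 29 small subunit genes were called, all higher by 0.22 to 0.34, and 0 in Bio. A rise of the size seen for RACK1 in dT was thus not particular to RACK1.

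Trametinib did not change any member past the threshold in either screen. Tests were edgeR's quasi-likelihood F-tests with Benjamini-Hochberg adjustment over all genes tested and a threshold of 0.05. Of 8 members tested in dT 0 were called, where 1.37% of 3930 genes were, and of 6 tested in Bio 0 were called, where 1.94% of 1754 genes were. DESeq2 also called 0 in both. At an unadjusted p under 0.05 there were 0 members in dT and 1 in Bio, RACK1.

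RACK1 in dT was at 9259 to 20144 CPM with a median of 15214 CPM in 21 libraries with trametinib, and at 8690 to 24548 CPM with a median of 15545 CPM in 27 without. The ranges lay over each other, and the fitted log2 fold change of 0.02 ± 0.085 had a 95% interval of -0.15 to 0.20 (adjusted p = 0.966, edgeR). Run means in dT were lower with trametinib in 3 of 3 runs, and the fitted sign turned with the size factors of DESeq2 (-0.043). In Bio the medians were 12196 CPM in 20 libraries with trametinib and 11592 CPM in 24 without, and the log2 fold change was 0.29 ± 0.13 (adjusted p = 0.345, edgeR), with higher run means in 3 of 3 runs. The interval in Bio, 0.03 to 0.55, is that of the single gene and is not adjusted for the number of genes.

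Relative to its standard error, the EEF2 estimate was the largest of the 8 members with trametinib in dT. EEF2 was at 776 to 7092 CPM with a median of 1986 CPM in 21 libraries with the drug, against 6.82 to 3419 CPM with a median of 1130 CPM in 27 without. The log2 fold change was 0.67 ± 0.32 (adjusted p = 0.416, edgeR), and run means were 1.34, 2.59 and 2.52 times as high with trametinib in runs 1, 2 and 3. In Bio it was 0.55 ± 0.60 (adjusted p = 0.844, edgeR), with run means again higher in 3 of 3 runs. Neither passed the threshold, and the dT estimate ranged from 0.43 to 1.49 over the alternatives.

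The EEF2 values of the trametinib pairs are given as a description, since no test was made within this arm and the test over all pairs, given next, did not pass for EEF2. In dT Trametinib_DMSO held the highest 3 of all 48 dT libraries, at 4854, 7092 and 6163 CPM in runs 1 to 3. In the reverse order, DMSO_Trametinib, the values were 4165, 2709 and 1708 CPM, and in Trametinib_Trametinib 2262, 3215 and 3749 CPM. In Trametinib_Imatinib EEF2 was at 958 to 2705 CPM, in Trametinib_YM115 at 1179 to 2425 CPM and in DMSO_DMSO at 883 to 3419 CPM. In Bio, Trametinib_DMSO was at 5755, 3771 and 8016 CPM and DMSO_DMSO at 171 to 2946 CPM, so that these groups did not overlap in either screen. Trametinib_DMSO did not hold the highest Bio values, since Bio DMSO_Trametinib was at 302 to 7087 CPM, Trametinib_Trametinib at 1215 to 10006 CPM and Imatinib_Trametinib at 721 to 13777 CPM. Trametinib_DMSO was singled out after its values were seen.

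Across all ordered pairs, the joint test asked whether a member varied among the 16 conditions at all. Of 8 members 0 were called in dT, where 0.303% of 6263 genes were, and 0 of 8 in Bio, where 22.9% of 4888 genes were. At an unadjusted p under 0.05 there were 2 in dT, RACK1 and EEF2 (EEF2 adjusted p = 0.0792, edgeR), and 0 in Bio. The test includes the imatinib pairs on which RACK1 was selected, so nothing is read from the place of RACK1 in it. DESeq2 called EEF2 in dT (adjusted p = 0.00245). Without run 1 EEF2 was also past the threshold in edgeR (adjusted p = 0.0441). In dT 3032 of the 6263 genes had an unadjusted p under 0.05 but 19 passed, so this test separates genes poorly there.

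YM115 likewise changed no member past the threshold. Of 8 members in dT 0 were called, beside 2.62% of 3930 genes, and of 6 in Bio 0, beside 2.74% of 1754 genes, with 0 members at an unadjusted p under 0.05 and 0 by DESeq2 in both screens. RACK1 in dT ran from 10064 to 20254 CPM with a median of 15214 CPM in 21 libraries with YM115 and had a median of 15611 CPM in 27 without. Its log2 fold change was 0.04 ± 0.085, with a 95% interval of -0.13 to 0.22 (adjusted p = 0.904, edgeR), and it was -0.11 with the size factors of DESeq2. In Bio it was 0.07 ± 0.13, with an interval of -0.19 to 0.33 (adjusted p = 0.886, edgeR). Of the members RACK1 had the narrowest interval with each drug and in either screen.

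The estimates of the less counted members with YM115 were wide. EEF2 was at -0.50 ± 0.32 in dT and -0.49 ± 0.61 in Bio, with run means lower in 3 of 3 runs of both screens (adjusted p = 0.538 and 0.842, edgeR). TPT1 stood at -0.26 ± 0.32 in dT and -0.97 ± 0.88 in Bio, and NACA at -0.05 ± 0.29 and -0.86 ± 0.89. The interval of EEF1D in dT reached from -3.72 to 1.04, and EEF1D and BTF3 were too sparse to be tested in Bio. The median over the members was -0.07 in dT and -0.40 in Bio with YM115, and -0.07 and -0.38 with trametinib, beside medians of all genes of 0.21, 0.53, 0.23 and 0.30 in the same order.

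**Figure D3:**
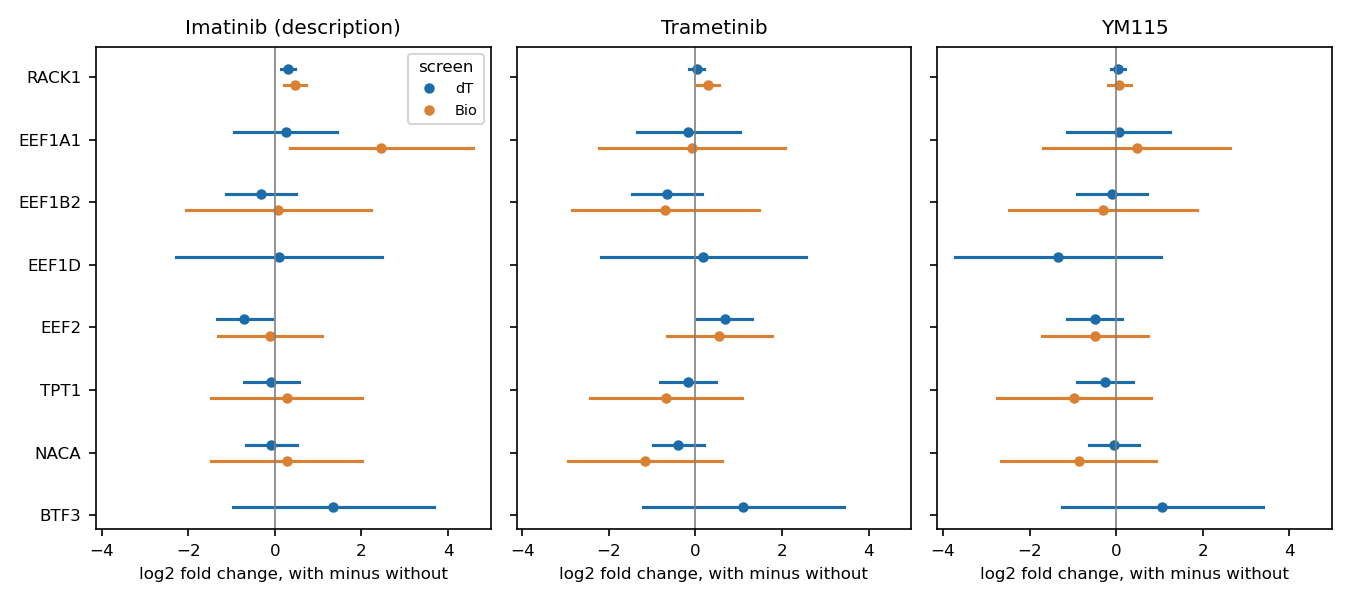
Fitted log2 fold change with against without each drug (x axis) for the members (y axis), with 95% intervals of the single gene, for the dT screen in blue and the Bio screen in orange. The imatinib panel is a description, since RACK1 was selected on it. RACK1 has the narrowest intervals in every panel, and no trametinib or YM115 value passed the adjusted threshold.

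No member's drug response was shown to differ between the screens. For the trametinib effect 0 of 8 members were called, where 4.59% of 4705 genes were, and for the YM115 effect 0 of 8, where 6.59% of 4705 were. The RACK1 trametinib effect was larger in Bio than in dT by 0.42 ± 0.16 on the log2 scale (adjusted p = 0.127, edgeR), and at an unadjusted p under 0.05 it was joined by EEF1D. For YM115 the RACK1 difference was 0.14 ± 0.16 (adjusted p = 0.719, edgeR) and 0 members had an unadjusted p under 0.05. DESeq2 called 0 members in both comparisons.

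The lists around the members also held few calls. Of the other elongation genes, such as EEF1E1 and EIF5A, only 5 of 17 could be tested in dT and 2 in Bio, and 0 were called with either drug. The same held for the nascent chain partners, with 5 of 15 tested in dT and 3 in Bio. Of the other TOP mRNAs 22 of 25 were tested in dT, and NPM1, which encodes nucleophosmin, was higher with YM115 (log2 fold change 4.38 ± 1.36, adjusted p = 0.0151, edgeR). It was counted in 9 of 21 libraries with YM115, at most at 293 CPM, and in 4 of 27 without, at most at 139 CPM. The NPM1 means were 26.9 CPM with YM115 and 10.8 CPM without, a much smaller difference than the fitted value gives. Of the TOP mRNA regulators 12 of 19 were tested in dT, and AKT1S1, which encodes the mTORC1 component PRAS40, was lower with YM115 (-3.99 ± 1.28, adjusted p = 0.0327, edgeR), counted in 3 of 21 libraries with the drug and 9 of 27 without. Both calls were lost under several alternatives, that of NPM1 without replicate 2 (adjusted p = 0.423, edgeR) or 3 (0.17) and that of AKT1S1 without replicate 1 (0.49) and with DESeq2 (0.361). Ribosomal protein genes had 0 calls with trametinib or YM115, among 42 large and 29 small subunit genes tested in dT and 40 and 27 in Bio.

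Loading the same drugs from both sources asks whether the position of a drug in the pair matters. In dT the joint test over the 3 drugs called 1 of 8 members, RACK1 (adjusted p = 0.0359, edgeR), in a comparison that called 10.7% of 3930 genes. That count too is close to the share over all genes, and nothing about the members as a group is read from it. In Bio 0 of 6 were called, beside 21.1% of 2112 genes, with 0 at an unadjusted p under 0.05 and 0 by DESeq2. With imatinib listed first, RACK1 in dT had a mean of 18113 ± 3724 CPM (SD, n = 12), and with imatinib listed second 15762 ± 4261 CPM (n = 12). For YM115 the order was the other way, 14021 ± 3046 CPM listed first and 15624 ± 2986 CPM listed second, while for trametinib the means were 14682 and 14614 CPM.

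These groups overlapped, but the first-listed and second-listed groups of a drug share the libraries that hold it in both positions. Some overlap was therefore fixed by the design. The dT call was lost under 10 of 11 alternatives, with adjusted p-values of up to 0.562. The imatinib part of it also rests on the contrast used to select RACK1. In Bio the means for imatinib were 15705 CPM listed first and 15906 CPM listed second (n = 9 each). Depth moved with position too, from a mean of 198556 counts with DMSO listed first in dT to 456524 with YM115 listed first, and with log2 total counts as a covariate the adjusted p was 0.0553. Its part in the result was not tested further.

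**Figure D4:**
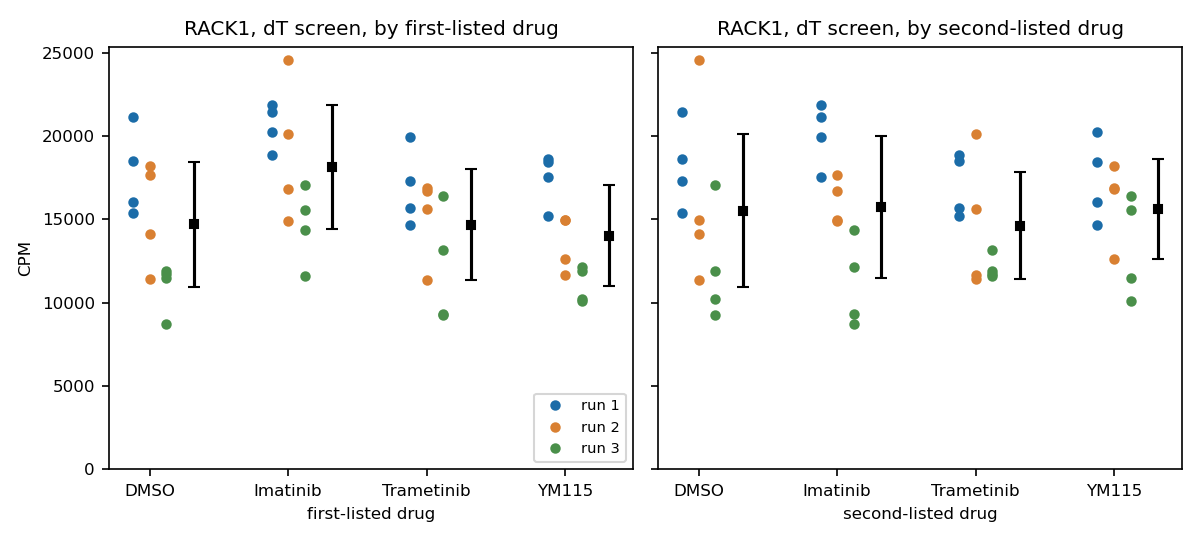
RACK1 level in CPM (y axis, from 0) in the 48 dT libraries by first-listed drug (left) and second-listed drug (right), coloured by run, with squares and bars for the mean and SD of 12 libraries. The mean with imatinib listed first, 18113 CPM, is the highest of the 8 means, and groups overlap within each panel. A left and a right group share the libraries of the pair that both name, so overlap between panels was fixed by the design.

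Between the screens, 3 of 8 members were lower in Bio than in dT, in a comparison that called 36.3% of 3874 genes. The count is close to the share over all genes, so nothing about the members as a group is read from it. RACK1 differed by -0.36 ± 0.073 on the log2 scale (adjusted p = 7.26e-05, edgeR), with means of 15377 CPM in dT and 13335 CPM in Bio, lower in 10 of 15 ordered pairs and in 2 of 3 run numbers. EEF1D differed by -3.46 ± 0.76 (adjusted p = 0.000141, edgeR), with means of 44.0 and 6.11 CPM. BTF3 differed by -3.18 ± 0.81 (adjusted p = 0.0014, edgeR), although its mean was 78.0 CPM in dT and 68.3 CPM in Bio, where the library with 401 BTF3 reads carried most of the sum. The remaining 5 members did not pass, with EEF2 at 0.38 ± 0.30.

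The median of all genes in the comparison of screens was -1.12, a larger fall than that of RACK1, but with no filter on low counts RACK1 was at -0.49 (adjusted p = 0.202, edgeR) and all genes at -0.34. Without replicate 2 RACK1 was at -0.18 with an adjusted p of 0.114 (edgeR), and with runs summed per ordered pair 0 members were called. Screens were prepared separately, so that the barcode swap and the occasion cannot be told apart.

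The separate DMSO controls were lower in RACK1 than every in-screen library that passed, although the adjusted test was not passed. The RACK1 level was 5455, 3113 and 3968 CPM in the 3 dT controls, against 15379, 14131 and 11900 CPM in DMSO_DMSO, and 4812, 2854 and 2150 CPM in the Bio controls against 6872, 8186 and 11283 CPM. The groups did not overlap in either screen, and all 48 dT and all 44 Bio in-screen libraries that passed lay above the highest control. The means were 3.30 times higher in DMSO_DMSO than in the controls in dT and 2.68 times higher in Bio. In the fit over all libraries of a screen the log2 difference was -1.25 ± 0.29 in dT (adjusted p = 0.0853, edgeR) and -1.20 ± 0.77 in Bio (adjusted p = 0.236, edgeR). In Bio this fit also held the in-screen libraries that did not pass.

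With the adjustment over all genes, 0 of 8 members passed in dT, where 0.0723% of 6917 genes did, and 0 of 8 in Bio, where 0.0432% of 4631 did. At an unadjusted p under 0.05 there was 1 in dT, RACK1, and 1 in Bio, EEF1D. DESeq2 called RACK1 in dT (adjusted p = 0.00971) and 0 members in Bio. Without replicate 3 RACK1 was at -1.47 (adjusted p = 0.00378, edgeR), and over all alternatives its adjusted p ran from 0.00315 to 0.607.

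Other members lay on either side. NACA was at 265 to 652 CPM in the dT controls and at 1275 to 2466 CPM in DMSO_DMSO, without overlap, and TPT1 had medians of 418 and 1497 CPM with overlap. EEF2 in Bio was at 3111 to 5008 CPM in the controls, above the 171 to 2946 CPM of DMSO_DMSO. BTF3 was counted in all 6 separate controls, at 105 to 150 CPM in dT and 56.0 to 134 CPM in Bio, but in 1 of 3 DMSO_DMSO libraries of either screen. EEF1D was counted in all 3 Bio controls at 83.9 to 281 CPM and in 0 of 3 Bio DMSO_DMSO libraries, where a count of 0 allows between 20.4 and 36.7 CPM. None of NACA, TPT1, EEF2, BTF3 and EEF1D passed the adjusted test in either screen. The median log2 difference of all genes was 3.30 in dT and 5.64 in Bio, beside -0.18 and 0.96 for the members. With only genes counted in 50% or more of libraries, the median of all genes was 0.55 in dT and 0.05 in Bio. It thus depended on the low-count filter, and nothing is read from its distance to the members.

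Detected genes, mitochondrial counts and depth of the controls are given above. Ribosomal protein genes took 6.0% to 18.7% of their counts in dT against 17.3% to 27.5% in the screen, and the 14 K562 markers summed to 5490 to 33900 CPM in the dT controls against 13100 to 85700 CPM in the dT screen. The part of these differences in the member values was not tested, and the labels do not say how the separate controls were handled.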

How the data were processed

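For each of 102 libraries the authors deposited the counts of reads by gene as whole numbers, with no normalisation, made by demultiplexing on the joined barcodes. The submitters' processing notes name STAR 2.4.2a and GRCh38. The annotation, the strand setting and any collapse of reads by molecular identifiers are not given in the sources used here, so the limits given for counts of 0 cover counting error only. Gene symbols were assigned to 24539 of 24965 genes from a name table, and coordinates come from GENCODE release 29 (24646 genes matched by identifier). The table held 0 columns of other samples and 0 entries that name no gene.

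CPM was computed over all counts of a library. Tests were edgeR 4.0.16 quasi-likelihood fits in R 4.3.3 across all genes (TMM scaling over the genes kept, filterByExpr, Benjamini-Hochberg, threshold 0.05), and DESeq2 1.42.0 was an alternative. Standard errors of log2 fold changes are those of the fitted coefficient, and intervals follow from them and include the spread between libraries, so that an interval and an F-test can differ for sparse genes. Where a gene is at or near 0 in a group, its fitted value is set partly by the prior count. The scripts were tested on simulated data. Drug fits had 3 drug terms with run as a block, because the whole process was carried out once per run and the study removed this batch. Deviations from the pair means had an average correlation within a run of 0.0243 in dT and of 0.0274 in Bio, across runs -0.0121 and -0.0137, and 1.39% and 5.32% of same-run pairs exceeded 0.1. The labels do not say that separate controls share a run, and these were not blocked. The study describes the runs as biological replicates, and how the cultures were kept apart is not given in the sources used here. Of 102 replicate pairs compared, 0 were identical (lowest chi-square per degree of freedom 3.33).

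The members, the gene lists and the tests were chosen with earlier results of these data known. Every member that could be tested is in the counts of each comparison, but not every member's value is printed. From the other lists at most 2 genes past the threshold per drug (trametinib, YM115) and screen were named, those with the smallest adjusted p, and for RACK1 the 5 most correlated genes per screen (log2 CPM, prior count 2, run means removed, counted in at least 90% of libraries). Alternatives covered scaling, DESeq2, low-count filters, the replicate block, each replicate left out, all in-screen libraries, depth as a covariate, summed runs and single-drug conditions. Library sizes over all genes were added after seeing the data. Figures were drawn with matplotlib.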

Additional observations from a re-analysis of the deposited data

How the results depend on the processing

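Counts of members past the threshold were recomputed under every alternative, and 119 such values stayed at the reported count or within 1.5 times it, 6 were above it and 13 below. The position call in dT fell from 1 member to 0 under 10 alternatives: the size factors of DESeq2, DESeq2 itself, no filter on low counts, a filter that keeps genes counted in 50% or more of libraries (the 50% filter), no replicate block, log2 total counts as a covariate, runs summed per ordered pair, and each replicate left out (0 to 0). Among ordered pairs in dT the count rose from 0 to 1 with DESeq2 and ranged from 0 to 2 with 1 replicate left out, where RACK1, selected on imatinib pairs that this test includes, was 1 of the 2. In the comparison of separate controls in dT it rose from 0 to 1 with DESeq2 and ranged from 0 to 1 with 1 replicate left out. Between the screens 3 members became 1 with the 50% filter, 0 with runs summed, and 1 to 3 with 1 replicate left out. BTF3 received no adjusted p from DESeq2 there, and EEF1D and BTF3 could not be fitted where the stricter filter removed them. The causes were not tested.

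Regarding the replicate block, leaving it out raised the count among ordered pairs in Bio from 0 to 1 (BTF3, adjusted p = 0.0101, edgeR). Adding it to the comparison of separate controls, which share only a number with the runs, raised the dT count from 0 to 1 (RACK1, log2 difference -1.21, adjusted p = 0.00315, edgeR). Deviations of same-numbered controls and DMSO_DMSO libraries correlated at 0.00276 to 0.0424 in dT and at -0.0172 to 0.0298 in Bio. Apart from these and the position call, the block changed no count of members called.

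None of the values that changed sign had passed the threshold, and ranges below are those with 1 replicate left out at a time. For RACK1 in dT the trametinib estimate became -0.043 with the size factors of DESeq2, -0.044 with DESeq2, -0.0084 with no replicate block, -0.012 with the depth covariate, -0.052 with runs summed and -0.015 to 0.041 by replicate. The YM115 estimate for RACK1 became -0.11 with either use of DESeq2, -0.018 with the 50% filter, -0.0036 with runs summed and -0.028 to 0.026 by replicate in dT, and -0.067 with the depth covariate and -0.015 to 0.38 by replicate in Bio.

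For EEF1A1 with YM115 in dT the values were -0.12 with either use of DESeq2, -0.0074 with the 50% filter, -0.022 with no replicate block, -0.044 with the depth covariate, -0.040 with runs summed, -0.58 in single-drug conditions and -0.29 to 0.45 by replicate. EEF1A1 with trametinib became 0.16 with no filter and -0.78 to 1.07 by replicate in Bio, and -0.56 to 0.21 by replicate in dT. Against the separate controls EEF1A1 became -0.078 with the depth covariate in dT and -0.23 to 7.18 by replicate in Bio. Between the screens EEF1A1 became 0.041 with DESeq2, 0.028 with its size factors, 0.19 with no replicate block, 0.23 with runs summed and -1.05 to 0.26 by replicate.

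EEF1B2 with YM115 became 0.33 with all in-screen libraries, 0.040 with runs summed, 3.63 in single-drug conditions and -0.76 to 2.69 by replicate in Bio, and 0.099 with the depth covariate, 0.0082 with no filter and -0.48 to 0.27 by replicate in dT. EEF1B2 with trametinib in Bio became 0.00069 with no replicate block, 0.27 with runs summed, 1.68 in single-drug conditions and -1.14 to 2.499 by replicate, and against the separate controls in dT -1.73 to 0.011 by replicate. EEF1D with trametinib in dT became -0.097 with no replicate block, -0.19 with runs summed, -2.28 in single-drug conditions and -1.65 to 0.58 by replicate. BTF3 with YM115 in dT became -0.33 to 3.10 by replicate.

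NACA with YM115 in dT became 0.031 with no filter, 0.22 in single-drug conditions and -0.36 to 0.18 by replicate, and between the screens 0.0052 with DESeq2 and 0.0055 with its size factors. TPT1 became 0.14 with YM115 and 0.024 with trametinib in single-drug conditions in dT, 1.27 against the separate controls in Bio and 0.0039 between the screens with the depth covariate, and -0.69 to 0.073 by replicate between the screens. EEF2 with YM115 in Bio became 2.01 in single-drug conditions. With the size factors of DESeq2 the median of all genes moved by -0.159 for YM115 in dT, by 0.122 between the screens, and by 0.368 and 0.514 for the separate controls in dT and Bio. EEF1D and BTF3 were counted in the fewest libraries, and the part of depth in this was not tested.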
